A study of Homo sapiens with 4 samples.

Results

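The 40 genes described here are the enzymes of glycolysis, the carriers that move glucose and lactate across the cell membrane, the enzymes that set the pace of the pathway, and the oxygen-sensing genes and classic hypoxia targets that are tied to it. They were chosen by gene name, and on the array they were represented by 49 of 34127 non-control probes, that is 40 of 27193 gene names. The cells were THP1, an established human monoblastic AML cell line that carries the MLL-AF9 fusion, and every array came from transfected cells, with no untransfected culture among those compared here. One treatment was 30 nM of miR-511 mimic, a synthetic double-stranded RNA that supplies mature hsa-miR-511-5p, and the other was 30 nM of negative control #1 mimic, given in the same way. After a single transfection the cells of both treatments were kept in DMEM/Ham's F12 with 0.5% serum and 1 g/L albumin, and RNA was taken on day 2. The data are 4 single-dye Agilent arrays from 2 independent experiments, each with 1 array of each treatment. The labels of the arrays name no oxygen level, so the hypoxia genes were read in cultures for which no hypoxic treatment is given.

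Glycolysis splits glucose into pyruvate in a chain of steps from hexokinase to pyruvate kinase, and lactate dehydrogenase turns pyruvate into lactate, which monocarboxylate carriers export. When oxygen falls, prolyl hydroxylases of the EGLN family stop marking the HIF alpha subunits HIF1A and EPAS1 for destruction by VHL, and the stabilised subunits pair with ARNT and switch on glycolytic enzymes together with targets such as CA9, ADM and EGLN3. HIF alpha subunits are controlled mainly as proteins, so their transcripts alone do not report the activity of the pathway.

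The mature miRNA that the mimic supplies is shown with its seed (bases 2 to 8) in capitals, since the seed is the stretch by which a miRNA pairs with a transcript. The sequence is that of RefSeq, assembly GRCh38.p14, at chr10:17845122-17845142 on the plus strand.
hsa-miR-511-5p: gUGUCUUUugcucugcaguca

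The complement of this seed, AAAGACA, was looked for on the sense strand of the probes themselves, each 60 bases long. It occurred in 1 of the 49 probes (2.04%), that of EGLN2, and in 331 of all 34127 probes (0.97%). A probe covers only a short stretch of a transcript, and the rest of each transcript was not searched.

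HIF dimers bind short DNA elements whose core is ACGTG or GCGTG. Both were searched on both strands in RefSeq promoters (250 bases before to 50 bases after the gene start, assembly GRCh38.p14), which were at hand for 35 of the 40 genes. Of these, 25 (71.4%) held at least 1 of the cores, against 48.4% of all 35116 promoters. The latter were not matched to the 35 for base composition or kind of gene. ACGTG was present in 14 (40% against 21.4%) and GCGTG in 16 (45.7% against 36.5%). The genes shown are those that passed the threshold in either comparison described further on and had a promoter at hand, with 1 window per gene. LDHA had 5 matches to ACGTG and 1 to GCGTG when both strands are counted, and only 1 of them is shown. Each window has 29 bases, runs 5′ to 3′ on the strand of the gene and has the core in capitals, where CACGC is the core GCGTG read from the other strand. A match of letters is a description and no measurement of binding.
LDHA, chr11:18394465-18394493, plus strand: agcccgactcacACGTGggttcccgcacg
EGLN1, chr1:231422284-231422312, minus strand: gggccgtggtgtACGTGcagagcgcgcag
PFKFB3, chr10:6144741-6144769, plus strand: ggcggcccggccCACGCcccggcttcccc
PFKFB4, chr3:48556953-48556981, minus strand: tgagttgggcatGCGTGgtcggaggccgg
ADM, chr11:10304960-10304988, plus strand: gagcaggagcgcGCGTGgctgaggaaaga
KDM3A, chr2:86441333-86441361, plus strand: ccgggaggctgtGCGTGtcttgtgagagc

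Of the 40 genes, 37 had a probe well above background on all 4 arrays, which is the scanner software's call that a spot is brighter than its surroundings. SLC2A3, the high-affinity glucose carrier, reached that level on 3 arrays, all but the miR-511 mimic array of experiment 1. EGLN3, an oxygen-sensing prolyl hydroxylase, and CA9, a membrane carbonic anhydrase, are strong hypoxia targets. Neither was well above background on any array, so no level and no difference is given for them. The remaining 38 genes were tested in both comparisons. A gene with several probes is given by its brightest tested probe, and levels are normalized log2 intensities, which cannot be compared between probes of different genes.

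Across the arrays, 22130 to 23647 probes were well above background, 232 to 301 spots were marked as outliers and left out, and 0 were saturated. The arrays occupied positions 1 to 4 of a single slide, with experiment 1 at positions 1 and 2 and experiment 2 at positions 3 and 4, so experiment and position on the slide cannot be told apart. Of 11 monoblast and myeloid markers, 10 were on the array under the names searched, and all 10 were well above background on 4 arrays. HOXA9 and HOXA10, expressed in MLL-rearranged leukemia, were too. Their partner MEIS1 was well above background on the 2 arrays of experiment 1 only, at 4.25 and 4.14 against 1.92 and 2.53 in experiment 2. MEIS1 passed the filter for testing only through experiment 1, where it was higher, so no test result is given for it. Among markers of other cell types, ALB, COL1A1, EPCAM and MS4A1 reached that level on 0 arrays, CD3E on 3, and KRT8, PECAM1 and HBG1 on all 4.

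**Figure D1:**
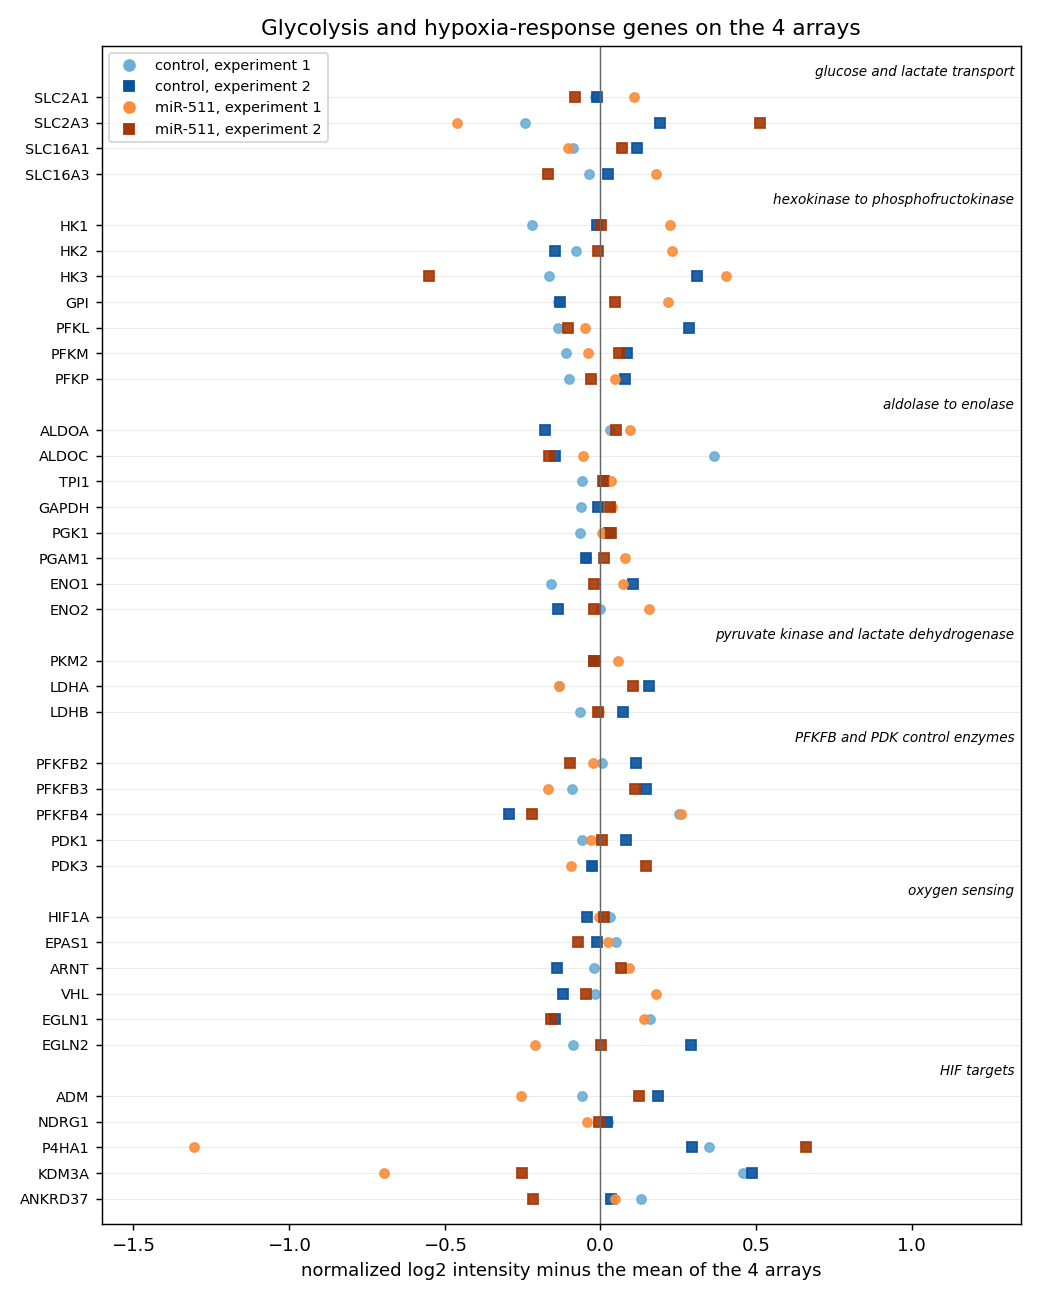
Normalized log2 intensity of each of the 38 tested genes on each array, drawn as the difference from that gene's mean over the 4 arrays and ordered by role; orange is miR-511 mimic, blue is control mimic, circles are experiment 1 and squares are experiment 2. Most genes lie within a narrow band around 0, P4HA1 and KDM3A have the widest spread, with the miR-511 mimic array of experiment 1 farthest to the left, and the circles and squares of SLC2A3, PFKFB4 and EGLN1 lie on opposite sides of 0. SLC2A3 was not well above background on the miR-511 mimic array of experiment 1.

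The first comparison asked whether the transcripts of this pathway differed between miR-511 mimic and control mimic. The glycolytic genes did not pass the threshold: 0 of 27 carriers, glycolytic enzymes and pace-setting enzymes were differentially expressed, and among all 38 tested genes only KDM3A, a histone demethylase gene induced by HIF, was down-regulated. That is 1 of 38 (2.63%) at limma's unadjusted p below 0.05, against 2.12% of 18000 gene names tested in the same way (1.23% higher and 0.889% lower), so the share was near that of all genes. No gene of the 38 passed after Benjamini-Hochberg adjustment over all 22638 tested probes, and neither did any other probe, the lowest adjusted p being 0.79. The median log2FC was 0.0156 over the 38 genes and 0.0102 over all gene names. The median size of the log2FC was 0.056, against 0.0778 over all gene names. The log2FC had the same sign in both experiments for 24 of 38 genes (63.2%), 12 of them higher and 12 lower, against 51.7% of all gene names. The treatments did not overlap for 10 genes (26.3%), against 25.8% of all gene names.

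KDM3A removes methyl groups from histone H3 and was read by a probe that spans chr2:86718371-86719192 in the hg19 annotation of the files. Its level was 6.80 with miR-511 mimic and 7.96 with control mimic in experiment 1, and 7.25 and 7.98 in experiment 2. Both miR-511 mimic arrays were lower than both control arrays, and the control arrays lay close together (SD 0.02) while the miR-511 mimic arrays did not (SD 0.31). The log2FC was -1.15 in experiment 1 and -0.74 in experiment 2, and -0.95 (SE 0.18) over both, a 1.93-fold lower level (limma, unadjusted p 0.0054, adjusted p 1). An exact two-sided permutation test of 2 against 2 arrays cannot give a p below 0.333. KDM3A remained below the unadjusted threshold when any 1 array was left out, with log2FC between -1.17 and -0.73. It did not pass an ordinary t-test between the arrays of the 2 treatments, without variance moderation (p 0.0506).

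P4HA1, a subunit of the prolyl hydroxylase that matures collagen and a HIF target, had the widest range of the tested genes. Its level was 8.02 with miR-511 mimic and 9.68 with control mimic in experiment 1, and 9.99 and 9.62 in experiment 2. The miR-511 mimic array of experiment 1 stood apart from the other 3, and the log2FC was -1.66 in experiment 1 and 0.36 in experiment 2. Over both experiments it was -0.65 (SE 0.69), with a 95% interval from -2.53 to 1.24 and no call. P4HA1 passed the unadjusted threshold when the miR-511 mimic array of experiment 2 was left out.

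The spots of KDM3A and P4HA1 both lie at the rim of the array, which was noticed after their values were seen. KDM3A was printed in column 3 of 85 and P4HA1 in row 531 of 532. Among probes printed once, the 1543 tested probes within 3 rows or columns of the border had a median log2FC size of 0.147, and 14.7% exceeded 0.5 in size. The 20357 probes further inside had a median of 0.0776, and 2.93% exceeded 0.5. The share called differed less, with 2.85% at the rim and 2.22% inside. The mean signal of KDM3A before the software's processing was 121 and 286 in experiment 1 and 204 and 300 in experiment 2 (miR-511 mimic first). These signals are not scaled between arrays. In the same order, the software's factor for the spatial trend at this spot was 0.776 and 0.923 in experiment 1 and 0.969 and 1.007 in experiment 2. The other tested probes of the 40 genes at the rim were those of ENO1 and EGLN2. The part of spot position in these differences was not tested.

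**Figure D2:**
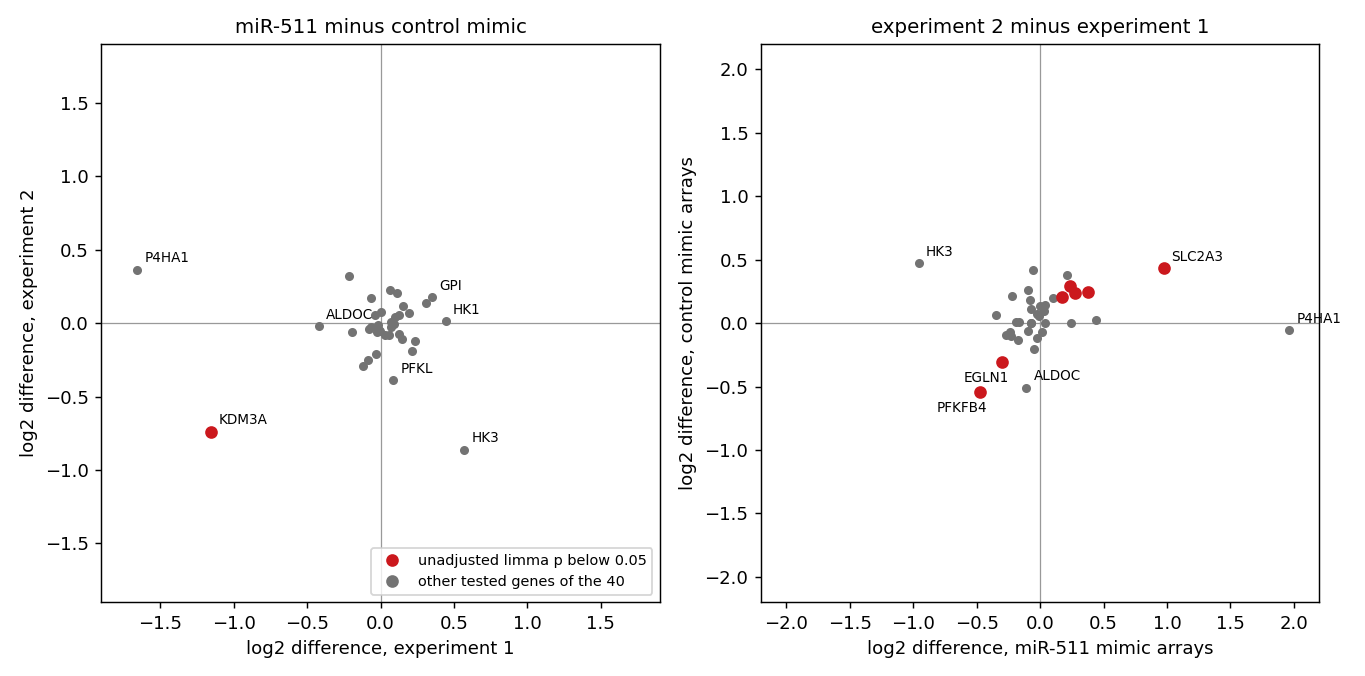
Log2 differences of the 38 tested genes, with each point a gene: on the left miR-511 mimic minus control mimic in experiment 1 (x axis) and experiment 2 (y axis), on the right experiment 2 minus experiment 1 within miR-511 mimic (x axis) and within control mimic (y axis). Red points passed limma's unadjusted threshold. KDM3A is lower in both experiments on the left, and P4HA1 (-1.66 and 0.36) and HK3 (0.57 and -0.86) changed sign between experiments. On the right the 7 red points lie in the quadrants where both treatments moved the same way. The test itself favours such genes, since a disagreement between treatments adds to its SE.

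By role, none of the 4 carriers was differentially expressed. The log2FC of the basal glucose carrier SLC2A1 was 0.03, and that of the lactate carriers SLC16A1 and SLC16A3 was -0.03 and 0.01. SLC16A3, which exports lactate from glycolytic cells, was 0.22 higher in experiment 1 and -0.19 in experiment 2, so its sign depended on the experiment. SLC2A3 had log2FC of -0.22 and 0.32.

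Of the 7 enzymes from hexokinase to phosphofructokinase, all 7 had positive values in experiment 1 and 3 had positive values in experiment 2. GPI, which converts glucose phosphate to fructose phosphate, came nearest to the threshold. Its level was 15.15 and 14.79 in experiment 1 and 14.98 and 14.80 in experiment 2 (miR-511 mimic first), so both miR-511 mimic arrays were above both control arrays. The log2FC of GPI was 0.27 (SE 0.11, unadjusted p 0.064 by limma, 95% interval -0.02 to 0.56). Scaling to the 75th percentile or an intensity trend in the variance brought it below the threshold. The GPI probe was printed in column 4 of 85, next to the rim as defined above. The part of spot position in its difference was not tested.

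HK1 and HK2, which trap glucose in the cell by phosphorylating it, had log2FC of 0.23 (SE 0.14) and 0.22 (SE 0.12). For HK1 this came from experiment 1, with 0.44 against 0.01 in experiment 2, and for HK2 the values were 0.31 and 0.14. HK3, the hexokinase of myeloid cells, was dim and moved in opposite directions, with levels of 5.02 and 4.45 in experiment 1 and 4.06 and 4.92 in experiment 2. The phosphofructokinases PFKL, PFKM and PFKP, which catalyse the committed step, had log2FC of -0.15, 0.02 and 0.02. A dimmer second probe of PFKP had -0.23 (SE 0.17), opposite in sign.

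Of the 8 genes from aldolase to enolase, 7 had a positive log2FC and 5 were positive in both experiments, but the values were small, from -0.22 for ALDOC to 0.15 for ALDOA, and none passed. GAPDH, often used as a reference transcript, had levels of 16.74 and 16.64 in experiment 1 and 16.74 and 16.70 in experiment 2, with a log2FC of 0.07 (SE 0.09, 95% interval -0.18 to 0.32). Its probe was printed 10 times, and the SD between the spots of an array was 0.0367 to 0.11. PGK1, also printed 10 times, had a log2FC of 0.04, TPI1 0.05, ENO1 0.05 and ENO2 0.13. PGAM1 had 0.09, and -0.001 at a second probe that RefSeq also assigns to the near-identical PGAM4.

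The brain-type aldolase ALDOC was 9.51 and 9.93 in experiment 1 and 9.40 and 9.42 in experiment 2, with the control array of experiment 1 above the other 3. It passed the threshold when the control array of experiment 2 was left out. The pyruvate kinase gene, named PKM2 on the array and PKM in RefSeq, had a log2FC of 0.04, LDHA -0.03 and LDHB -0.01. A second LDHA probe had 0.10, and its coordinates in the files, chr9:14921817-14921876, are not those of LDHA on chromosome 11, so it may also read a near-identical copy.

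PFKFB enzymes make and remove the sugar phosphate that activates phosphofructokinase, and PDK enzymes keep pyruvate out of the mitochondrion by phosphorylating pyruvate dehydrogenase. The log2FC was -0.12 for PFKFB2, -0.06 for PFKFB3 (0.05 at its second probe), 0.04 for PFKFB4, -0.03 for PDK1 and 0.05 for PDK3. None of the 5 passed. In the oxygen-sensing group, HIF1A had levels of 9.15 and 9.19 in experiment 1 and 9.17 and 9.11 in experiment 2, and a log2FC of 0.01 (SE 0.09, 95% interval -0.24 to 0.26). Its probe was printed 10 times, and the SD between spots was 0.305 on the miR-511 mimic array of experiment 1. On the other arrays that SD was 0.0607 to 0.0954. The log2FC of EPAS1 was -0.04, of ARNT 0.16, of VHL 0.13, of EGLN1 -0.02 and of EGLN2 -0.21 (SE 0.17). ARNT was higher with miR-511 mimic in both experiments (0.11 and 0.20) and EGLN2 was lower in both (-0.12 and -0.29), each without passing the threshold. The probe of EGLN2 lies at the rim of the array. Any part of that position, or of the seed complement it holds, in the difference was not tested.

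The 5 tested genes listed here as HIF targets had a negative log2FC, and 4 of them were negative in both experiments. This did not extend to the further HIF targets and regulators, of which 17 of 30 had a positive and 13 a negative log2FC (median 0.0065). Apart from KDM3A and P4HA1 the values were small, with -0.17 for ANKRD37, -0.13 for ADM and -0.05 for NDRG1, and only KDM3A passed. NDRG1, a stress-response gene, had the narrowest spread of all, with 11.05 and 11.11 in experiment 1 and 11.08 and 11.11 in experiment 2. With 2 arrays per treatment, the 95% interval of limma lay within 0.5 on the log2 scale (1.41-fold) of no difference for 25 of the 37 genes without a call. For the other 12 it did not: ADM, ALDOC, ANKRD37, EGLN2, GPI, HK1, HK2, HK3, P4HA1, PFKFB4, PFKL and SLC2A3. For those 12 genes the arrays do not bound the difference that closely.

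The second comparison set experiment 2 against experiment 1, with 1 array of each treatment in each. It uses the same 4 arrays as the treatment comparison. Of the 37 genes well above background on all 4 arrays, 6 (16.2%) passed limma's unadjusted threshold, against 13.8% of 17177 gene names. SLC2A3 passed as well, but it was tested only through experiment 2, where it was higher. With it the count was 7 of 38 (18.4%), 5 of them higher and 2 lower in experiment 2. Over all gene names the share was then 14.3% of 17964 (5.63% higher and 8.72% lower). The glucose carrier SLC2A3, the lactate carrier SLC16A1, LDHA, PFKFB3 and ADM were higher, and PFKFB4 and the oxygen sensor EGLN1 were lower. None passed after adjustment, the lowest adjusted p among them being 0.19, and 0 of 22596 probes passed in all (lowest adjusted p 0.0632), against 3191 at the unadjusted threshold. The median difference was 0.0171 over the 38 genes and -0.0126 over all gene names, and the median size was 0.134 and 0.121. The difference had the same sign within both treatments for 22 of 38 genes (57.9%), against 63.6% of all gene names. The experiments did not overlap for 17 of the 38 genes (44.7%), against 50.1% of all gene names.

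**Figure D3:**
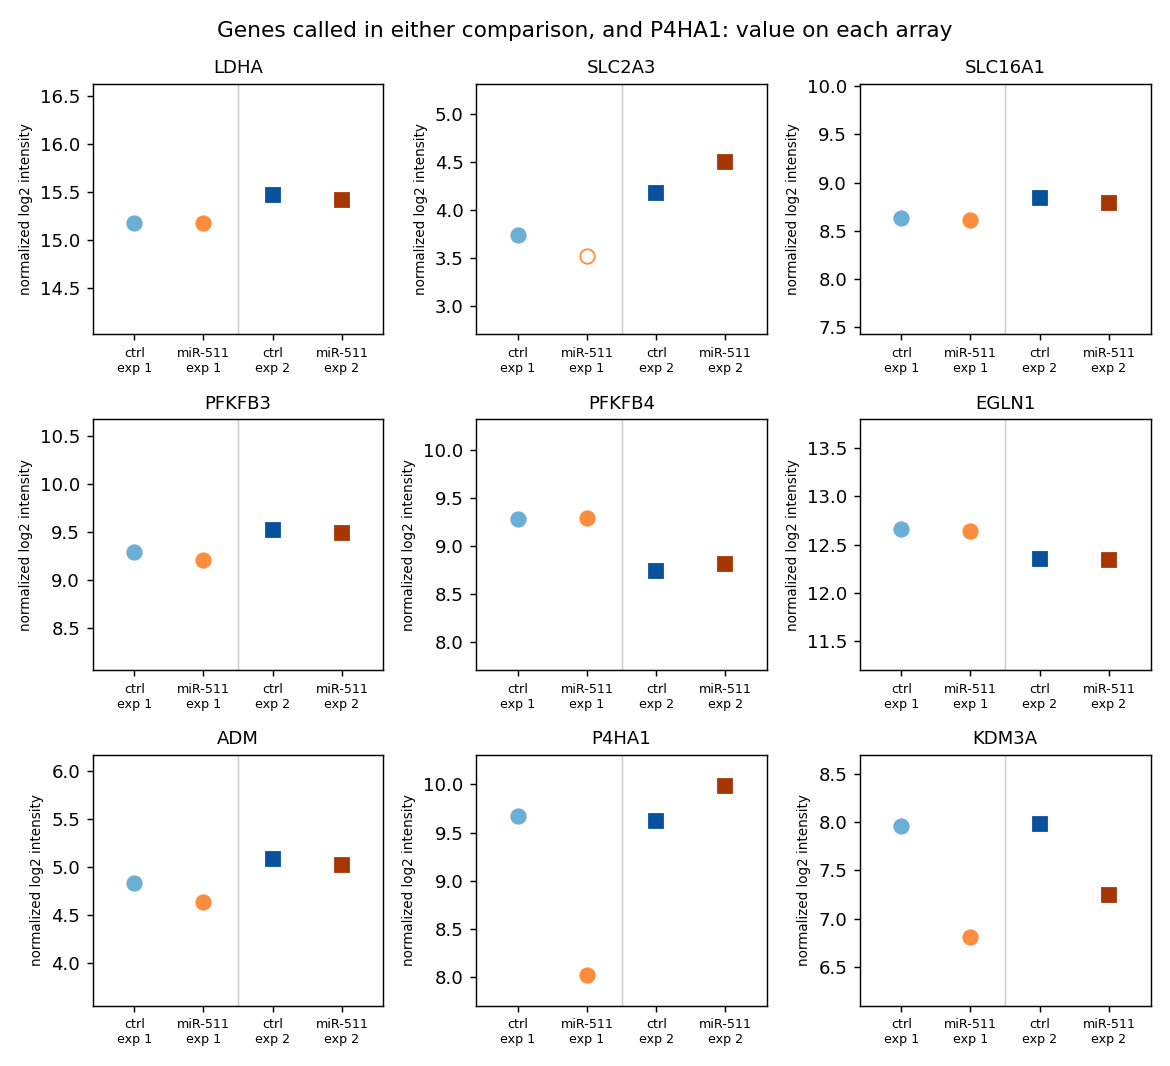
Normalized log2 intensity on each array of the 8 genes called in either comparison and of P4HA1, with circles for experiment 1 and squares for experiment 2, blue for control mimic and orange for miR-511 mimic; every panel spans the same range on its log2 axis. The open circle of SLC2A3 was not well above background. In 7 panels the squares lie together above or below the circles, in KDM3A both miR-511 mimic arrays lie low, and in P4HA1 a single array does.

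PFKFB4, which makes or removes the activator of phosphofructokinase, had the lowest p of the 38 genes. Its level was 9.29 and 9.28 in experiment 1 and 8.81 and 8.74 in experiment 2 (miR-511 mimic first), and the treatments lay close together within each experiment. The difference was -0.51 on the log2 scale (SE 0.07), a 1.43-fold lower level in experiment 2 (limma, unadjusted p 0.002, adjusted p 0.19). It passed the unadjusted threshold in each of 13 alternative settings. Its probe lies at chr3:48555454-48555513.

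PFKFB3, the family member that strongly favours synthesis of the activator, differed in the opposite direction. Its level was 9.21 and 9.29 in experiment 1 and 9.49 and 9.53 in experiment 2, a difference of 0.26 (SE 0.07, adjusted p 0.297 by limma). A second, dimmer PFKFB3 probe had 5.51 and 5.44 in experiment 1 and 5.70 and 5.68 in experiment 2, and passed as well with 0.22 (SE 0.07, unadjusted p 0.039). The call of the brighter probe was lost when either miR-511 mimic array or the control array of experiment 2 was left out, with differences between 0.22 and 0.28. PFKFB2 had a difference of 0.02, PDK1 0.09 and PDK3 0.12, none of which passed.

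LDHA, the enzyme subunit that favours lactate production, had 15.18 on both arrays of experiment 1, and 15.42 and 15.47 in experiment 2. The difference was 0.26 (SE 0.07), a 1.20-fold higher level (adjusted p 0.279 by limma). Leaving out any 1 array raised its p above the threshold with differences between 0.24 and 0.29. The second LDHA probe, with the chromosome 9 coordinates, had 0.22 (SE 0.08, unadjusted p 0.060). LDHB, the subunit that favours the reverse reaction, had 0.07 at its bright probe and -0.53 (SE 0.22, unadjusted p 0.072) at a second probe. That second probe read 15.41, 15.34 and 15.14 on 3 arrays and 14.56 on the miR-511 mimic array of experiment 2, so its difference came largely from that array. PKM2 had -0.04.

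The carriers SLC2A3 and SLC16A1 were higher in experiment 2. SLC2A3 was 3.53 and 3.74 in experiment 1 and 4.50 and 4.18 in experiment 2, close to background, with a difference of 0.70. It passed the low-value filter only through experiment 2, where it was higher, so its call is not taken as a result. With normexp background correction the difference was 0.13 and no longer passed, and it did not pass the ordinary t-test between arrays. Among the 37 genes well above background on all 4 arrays, which leave out SLC2A3, 6 were called (16.2%), against 13.8% of 17177 gene names. SLC16A1 was 8.62 and 8.63 in experiment 1 and 8.79 and 8.84 in experiment 2, a small difference of 0.19 (SE 0.07, unadjusted p 0.049, adjusted p 0.354) that was lost in 8 of 13 settings. SLC2A1 and SLC16A3 had -0.09 and -0.14 and did not pass.

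Neither the 7 genes from hexokinase to phosphofructokinase nor the 8 from aldolase to enolase included a gene that passed. Their differences ran from -0.31 for ALDOC to 0.18 for PFKL. The control arrays and the miR-511 mimic arrays went opposite ways for several of them, as in HK3 (-0.96 within miR-511 mimic and 0.47 within control mimic) and HK1 (-0.22 and 0.21). PGAM1 had -0.03 at its bright probe and 0.08 at the second. GPI had -0.08 (SE 0.15).

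In the oxygen-sensing group, EGLN1, the main prolyl hydroxylase that marks HIF alpha for destruction, was lower in experiment 2. Its level was 12.64 and 12.66 in experiment 1 and 12.34 and 12.35 in experiment 2. The difference was -0.30 (SE 0.07), a 1.23-fold lower level (adjusted p 0.243 by limma), with nearly the same value within miR-511 mimic (-0.30) and within control mimic (-0.31). It was not called with normexp background correction or without the miR-511 mimic array of experiment 2. The EGLN1 probe was printed in column 4, next to the rim, and any part of that position in the difference was not tested. EGLN2 had 0.29 (SE 0.13, unadjusted p 0.086) and passed with treatment as a term in the fit. HIF1A had -0.03, and -0.19 (SE 0.07, unadjusted p 0.057) at a second probe. EPAS1 had -0.08, ARNT -0.07 and VHL -0.17.

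Among the HIF targets, ADM, a secreted vasodilator peptide, was 4.64 and 4.84 in experiment 1 and 5.02 and 5.08 in experiment 2. The difference was 0.31 (SE 0.10, adjusted p 0.325 by limma), while its 10 spots on 1 array varied with an SD of 0.18 to 0.296, and the call was lost in 7 of 13 settings. P4HA1 had 0.96 (SE 0.60), made of 1.97 within miR-511 mimic and -0.05 within control mimic, and did not pass. KDM3A had 0.23 (SE 0.49), ANKRD37 -0.18 and NDRG1 0.02. The 95% interval lay within 0.5 of no difference for 22 of the 31 genes without a call.

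Further genes of the same pathways were read from 3 lists. Of 33 tested genes among other glycolytic and linked enzymes, 1 (3.03%) passed the threshold between treatments, against 2.12% of all gene names. This was LDHC, the lactate dehydrogenase of the testis, which was dim at 5.17 and 4.38 in experiment 1 and 4.96 and 4.69 in experiment 2, with a log2FC of 0.53 (SE 0.16, adjusted p 1 by limma). None of 30 tested genes among other HIF targets and regulators passed. Of 14 genes of glucose sensing and growth control, 1 (7.14%) passed. This was MLXIP, a glucose-sensing transcription factor, at 12.27 and 12.93 in experiment 1 and 12.60 and 12.83 in experiment 2 (log2FC -0.45, SE 0.15, adjusted p 1 by limma). Its probe was printed in row 529 of 532, next to the rim as defined above. The part of spot position in its difference was not tested.

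Between experiments, 4 of 33 other glycolytic and linked enzymes passed (12.1%) and 6 of 30 other HIF targets and regulators (20%), against the 14.3% of all gene names. In the third list PPARGC1A was well above background only in experiment 1, where it was higher, and it is left out. Of the other 14 genes of glucose sensing and growth control, 3 passed (21.4%, against 13.8% of the gene names well above background on all 4 arrays). In the first list PDK4, which blocks pyruvate oxidation, was higher in experiment 2 by 0.51. The muscle enolase ENO3, the gluconeogenic enzyme FBP1 and the glycogen phosphorylase PYGL were lower, with differences of -0.39, -0.32 and -0.26.

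In the HIF list, TMEM45A and the collagen-modifying enzyme PLOD2 were higher in experiment 2 by 0.56 and 0.34. The angiogenic factor VEGFA was lower, with levels of 9.09 and 8.92 in experiment 1 and 8.57 and 7.80 in experiment 2 (difference -0.82, SE 0.29, adjusted p 0.348 by limma). P4HA2, MXI1 and the histone demethylase KDM4B were lower too, with -0.35, -0.32 and -0.22. The probes of PLOD2 and KDM4B lie at the rim of the array. Known HIF targets among the genes that passed, with SLC2A3 left out for its filter, lay on either side of 0, with LDHA, PFKFB3, ADM, PLOD2 and TMEM45A higher and VEGFA, PFKFB4, EGLN1, P4HA2, MXI1 and KDM4B lower in experiment 2.

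In the third list the genes that passed were lower, with PPARGC1A left out for its filter. TXNIP, whose product restrains glucose uptake, was 12.75 and 12.92 in experiment 1 and 12.02 and 12.34 in experiment 2 (difference -0.66, SE 0.14, adjusted p 0.241 by limma). Its relative ARRDC4 had -0.31 and the kinase AKT2 -0.47. The coactivator PPARGC1A was tested only through the 2 arrays of experiment 1, where it was higher, so no difference is given for it. Of the 10 myeloid markers, 9 had a negative difference and 4 passed, all lower in experiment 2 (40%, against 8.72% of all gene names): CD68 (-0.29), CSF1R (-0.25), ITGB2 (-0.32) and PTPRC (-0.30). Of 5 tested markers of other cell types, 1 passed (20%, against 14.3% of all gene names), HBG1, which was lower too (-0.29). KRT8 (-0.13) and PECAM1 (-0.11) were lower and CD3E was higher, none of them passing. The part of these markers in the differences between experiments was not tested. In RNA from whole cultures fewer cells of a kind and less RNA per cell cannot be told apart.

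**Figure D4:**
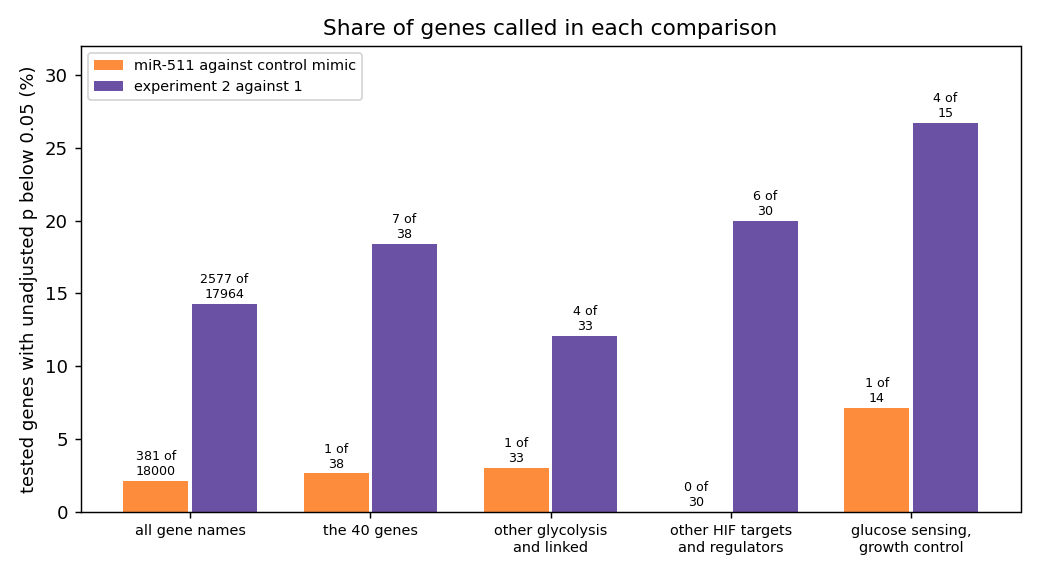
Percentage of tested genes past limma's unadjusted threshold (y axis) for all gene names, the 40 genes and the 3 further lists, in the treatment comparison (orange) and the comparison of experiments (purple); the labels give the genes called of the genes tested. The share called was higher between experiments than between treatments for each of the 5 sets, with 14.3% against 2.12% for all gene names and 18.4% against 2.63% for the 40 genes. The bars between experiments count SLC2A3 among the 40 genes and PPARGC1A in the third list. Each was tested only through the experiment where it was higher. Without them the shares were 16.2% and 21.4%.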

How the data were processed

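The authors deposited 1 Agilent Feature Extraction file per array (software 10.5.1.1 per the labels), whose processed intensity has had background removed and a spatial trend taken out by the scanner software, and a table of quantile-normalized log2 values. The latter was used as an alternative. Here the log2 processed intensity of 43118 spots per array was quantile normalized after outlier spots were removed, and the spots of a probe were averaged, using R 4.3.3 and limma 3.58.1. A probe was tested when it had a value on all 4 arrays and, in 1 or more of the compared groups, was well above background on both arrays. limma's lmFit and eBayes gave two-sided p-values (4.14 and 3.98 total degrees of freedom), with Benjamini-Hochberg adjustment over all tested probes. The threshold was an unadjusted p of 0.05, as in the study. For a call the study further asked for a t-test below 0.05 across identical replicate probes, which was not applied here. With 1 array per treatment in an experiment, differences within an experiment have no test. The 2 experiments are independent per the labels.

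The experiment number, given in the titles, pairs the arrays: deviations of same-numbered arrays from their treatment means correlated at 0.271. All 49 probes matched RefSeq names, and where in a transcript a probe lies was not analysed here. The named genes are all 40 genes and, of the further lists, those past the threshold, at most 6 per list and comparison. Members and lists were chosen with earlier results of these data known. The functions were tested on simulated data. The number of arrays limits the precision. The alternatives tried were scaling to the 75th percentile, background correction by normexp with an offset of 50, and dim probes kept or filtered more strictly. Others were the authors' table of log2 values, the replicate block, variance moderation with an intensity trend, and an ordinary t-test between arrays. Each array was also left out in turn, and all tested probes of a gene were averaged. Probe coordinates follow the hg19 annotation of the files, and promoter and miRNA coordinates follow GRCh38.p14. Of the cell type markers, 1 is not reported here.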

Additional observations from a re-analysis of the deposited data

How the results depend on the processing

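No gene called in the main setting changed direction, within the comparison that called it, in the alternatives run. The direction of genes without a call was not followed across the alternatives. In the treatment comparison 1 of the 40 genes was called. The count was 2 with 75th percentile scaling and with an intensity trend (GPI joined KDM3A), and 0 with the ordinary t-test between arrays. The 498 probes called among all became 265 with normexp background correction, 1029 with no filter on dim probes, 285 with an intensity trend and 516 to 1379 when 1 array was left out (796 without the control array of experiment 1, 1379 without the miR-511 mimic array of experiment 2). With the replicate block the count was 894, while KDM3A stayed the only one of the 40 genes called. Between experiments, 7 genes were called, 3 to 6 when 1 array was left out (4 without either miR-511 mimic array, 6 without the control array of experiment 1 and 3 without that of experiment 2), and 5 to 8 in the other alternatives. With the block for treatment the count was 7, with EGLN2 in and SLC16A1 out. The 3191 probes called among all became 1899 to 3381 when 1 array was left out, with 1899 without the control array of experiment 2. With normexp background correction the count for the 40 genes was also 7, but only LDHA, PFKFB3 and PFKFB4 were shared with the main setting. With no filter on dim probes it was 8, with CA9 and EGLN3, which were not well above background on any of the arrays. The cause of these changes was not tested. When 1 array is left out, the lone array of its group is assumed to vary like the others.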
